A study of Homo sapiens with 6 samples.

Results

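The genes described here carry out MHC class II antigen presentation. They are CIITA, CD74, HLA-DRA, HLA-DRB1, HLA-DPA1, HLA-DPB1, HLA-DQA1, HLA-DQB1, HLA-DMA and HLA-DMB. Accessible regions were taken from 6 ATAC-seq peak lists of the human multiple myeloma line ARP1, a cancer line of plasma cell origin: 3 libraries with a KDM6A knockout and 3 with wild-type KDM6A. ATAC-seq marks open DNA through cutting by the Tn5 transposase. Merging the lists where peaks shared at least 1 bp gave 75701 regions, and 35 of them overlapped one of the 10 genes or lay within 50 kb of either end in RefSeq GRCh38. All 6 libraries come from the same line, and the labels name no treatment. The labels number them as biological replicates and name no clone or culture, and the deposited lists of each genotype carry a single name stem, so whether each genotype is 1 clone is not known. Genotype and clone then cannot be told apart, and a p-value here reflects only how much the libraries of a genotype vary, which may be technical. No test of 3 libraries against 3 can give an exact p below 0.1, so none of the differences reported here could pass 0.05. The submitters' stated question is how KDM6A, a histone H3 demethylase that removes a repressive mark, acts on accessibility.

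MHC class II molecules are pairs of an alpha and a beta chain that show peptides from the endosome to CD4+ T cells. CD74, the invariant chain, blocks the groove until the molecule reaches the endosome, and HLA-DM, made of HLA-DMA and HLA-DMB, then helps to exchange the last piece of CD74 for a peptide. CIITA is the master coactivator of all these genes. It does not bind DNA itself but is recruited by RFX, CREB and NF-Y proteins that sit on the X and Y boxes of class II promoters. B cells express CIITA constitutively, and its silencing by PRDM1 is a known step of plasma cell differentiation.

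The promoter sequences of HLA-DMB, HLA-DMA and HLA-DPB1 are shown because these were the annotated class II starts that carried a peak in any list, and that of HLA-DRB1 is shown as a start that carried none. Each runs 5′ to 3′ on the strand of the gene, from 250 bases before the start to 50 bases from the start on, and is credited to RefSeq (GRCh38.p14). Capitals mark matches of the X box core CCTNGNNAC or the Y box core GATTGG on either strand, and in these windows no X match overlapped a Y match. The windows are chr6:32940979-32941278 (minus strand) for HLA-DMB, chr6:32953048-32953347 (minus strand) for HLA-DMA, chr6:33075740-33076039 (plus strand) for HLA-DPB1 and chr6:32589799-32590098 (minus strand) for HLA-DRB1.
HLA-DMB: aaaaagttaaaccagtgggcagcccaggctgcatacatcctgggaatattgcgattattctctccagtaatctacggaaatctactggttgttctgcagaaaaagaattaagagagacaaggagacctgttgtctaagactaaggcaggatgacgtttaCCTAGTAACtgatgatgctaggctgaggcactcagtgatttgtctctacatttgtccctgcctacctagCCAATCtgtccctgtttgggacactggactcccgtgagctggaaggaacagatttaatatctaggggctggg
HLA-DMA: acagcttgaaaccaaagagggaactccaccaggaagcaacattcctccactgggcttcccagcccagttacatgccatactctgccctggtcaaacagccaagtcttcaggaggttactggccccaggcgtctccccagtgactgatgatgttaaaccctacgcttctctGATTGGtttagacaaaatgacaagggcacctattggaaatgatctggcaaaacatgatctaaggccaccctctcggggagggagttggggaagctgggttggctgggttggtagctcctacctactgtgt
HLA-DPB1: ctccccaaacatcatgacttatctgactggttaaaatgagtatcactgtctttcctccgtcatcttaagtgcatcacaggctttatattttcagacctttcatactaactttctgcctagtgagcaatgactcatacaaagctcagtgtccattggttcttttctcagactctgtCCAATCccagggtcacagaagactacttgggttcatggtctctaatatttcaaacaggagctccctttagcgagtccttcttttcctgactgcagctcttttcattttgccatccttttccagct
HLA-DRB1: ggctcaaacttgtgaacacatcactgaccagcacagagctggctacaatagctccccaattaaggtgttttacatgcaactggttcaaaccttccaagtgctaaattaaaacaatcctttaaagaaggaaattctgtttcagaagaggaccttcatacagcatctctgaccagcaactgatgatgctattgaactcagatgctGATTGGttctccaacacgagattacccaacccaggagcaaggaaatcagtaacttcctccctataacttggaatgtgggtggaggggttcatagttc

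Of the 9 annotated starts of the listed genes, 2 held an X core and 5 a Y core, and 0 held both in that order with 10 to 30 bases between them. Among all 35116 annotated starts of the table the shares were 15.2% for the X core, 15.1% for the Y core and 0.148% for the pair. In HLA-DMB the X core begins at position −91 from the start and the Y core, on the opposite strand, at −22. The Y core of HLA-DMA begins at −80, that of HLA-DPB1 at −75 on the opposite strand and that of HLA-DRB1 at −47. A match is a string of letters and not a measured binding site. Boxes that depart from these strings by a base are not counted, so 0 pairs does not show that the boxes are absent. CIITA and HLA-DRA have no entry in the promoter table used here.

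Each list holds, for every peak, a fold over background and a −log10 p-value, both from the authors' peak caller. The knockout lists held 33055 to 37314 peaks outside the mitochondrial genome and the wild-type lists 54443 to 56048. The weakest peak had a fold of 3.09 to 3.31 in the knockout lists and 2.72 to 2.92 in the wild-type lists, and folds moved in steps of 0.281 to 0.328 in the knockout lists and 0.210 to 0.243 in the wild-type lists. A weak region therefore had to reach a higher fold to be listed in a knockout library, and this difference stands beside every presence call given here. Folds and within-list percentiles describe a peak in its own list, and no change between genotypes is read from them. Rank, the percentile of the −log10 p-value, was compared over the 23589 regions called in all 6 lists, where every list orders the same regions. In bulk ATAC-seq, fewer cells with an open region and a less open region in every cell cannot be told apart.

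The start of KDM6A, the targeted gene, carried a peak in every list, with a fold of 11.4, 15.1 and 12.6 in the knockout and 8.76, 13.6 and 10.7 in wild-type libraries. An open start does not show whether the coding sequence was edited, so it does not check the labels. The plasma cell label was set beside peaks within 1 kb of either end of marker genes. Of 9 plasma cell markers, 6 had such a peak in all 6 lists (SDC1, TNFRSF17, XBP1, IRF4, MZB1 and CD38). The share over 20037 protein-coding genes was 55.6%, so this count does not set the markers apart. SLAMF7 and JCHAIN had such a peak in 0 knockout and 3 wild-type lists. PRDM1 had one in 1 knockout and 3 wild-type lists, although its annotated start had a peak in all lists. Of 5 B cell genes, MS4A1, CD22 and CD79A had none, PAX5 had one in 2 knockout and 3 wild-type lists, and CIITA in all lists, at the end it shares with DEXI. Not all other lineages were at 0: the T cell gene CD3E had a peak in all lists and CD2 in 0 knockout and 2 wild-type lists, while CD3D, TRAC and the 4 myeloid genes LYZ, CSF1R, SPI1 and CD14 had none. The part of other cell types in the results was not tested.

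CIITA held the strongest accessible region found inside any of the listed genes and away from the start of another gene. CIITA (gene ID 4261) lies on chromosome 16 from 10866206 to 10943021, and 8 regions fell in its window, 5 of them inside the gene. Its lower-coordinate end, where the longest transcripts are known to begin, had no peak within 1 kb in any list. The gene is known to have further promoters inside this span, used in B cells and after interferon gamma. Their positions are not in the tables used here, so the internal regions are given by position and not assigned to a promoter.

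The strongest internal region, at 10876548 to 10878065, began 10342 bp above the lower end. Its fold was 9.93, 8.52 and 12.1 in the knockout libraries and 13.5, 14.8 and 10.9 in the wild-type libraries, with means of 10.2 ± 1.78 in the knockout and 13.1 ± 1.99 in wild-type libraries (SD, n = 3 each). The within-list percentile was 70.8 ± 10.3 in the knockout and 80.6 ± 4.25 in wild-type libraries. Ranked over the regions called in all lists, it stood at the percentiles 57.3, 39.3 and 71.3 in the knockout and 63.1, 58.2 and 45.0 in wild-type libraries. The genotypes overlapped, and the difference was 0.55 points (two-sided exact permutation test, p = 1).

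A second region called in all lists lay at 10881212 to 10882100, 15006 bp above the lower end. Its fold was 6.32, 6.88 and 6.73 in the knockout and 7.26, 7.53 and 4.82 in wild-type libraries. Its rank among the shared regions was 23.7, 23.9 and 31.9 in the knockout and 20.7, 15.6 and 4.52 in wild-type libraries, so that every knockout library lay above every wild-type library. The difference was 12.9 points (exact permutation p = 0.1). With lists of equal length this region was called in 3 knockout and 2 wild-type lists.

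The flanking internal regions were weak. That at 10870918 to 10871976 was called in 1 knockout list (fold 4.77) and in 3 wild-type lists (4.70, 5.35 and 3.56). That at 10878426 to 10879267 was called in 1 knockout list (fold 5.42) and in 3 wild-type lists (3.42, 4.13 and 3.56). Each was missing from 2 knockout lists. With lists of equal length both regions were called in 1 knockout list and in 0 wild-type lists.

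At its upper-coordinate end CIITA shares a peak with another gene. The region at 10941446 to 10942937 overlaps both CIITA and DEXI, lies within 1 kb of the annotated start of DEXI and was called in all lists. Its fold was 12.3, 11.8 and 12.6 in the knockout and 8.11, 12.4 and 8.38 in wild-type libraries. Ranks among the shared regions were 71.1, 61.9 and 73.8 in the knockout and 27.4, 46.1 and 27.0 in wild-type libraries, without overlap. This was the largest difference among the 10 listed-gene regions called in every list, at 35.4 points (exact permutation p = 0.1). Of all shared regions, 0.924% had a difference as high or higher. That share is for a single region, while this one was picked as the largest of 10, so it overstates how rare the value is. The next region, at 10944118 to 10945092, lies at the start of CLEC16A, a regulator of mitophagy, and its ranks overlapped (48.3, 73.3 and 57.0 in the knockout, 19.0, 51.3 and 33.2 in wild-type libraries).

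Inside CLEC16A, 2 further regions fell in the CIITA window. The region at 10963966 to 10964512 was called in 3 knockout lists, with folds of 5.12, 5.90 and 5.61, and in 1 wild-type list, with a fold of 6.08. It was the 1 of 11 regions in every knockout list that was not in every wild-type list, compared with 3.23% of 24377 such regions genome-wide, and no test was made of this share. The region at 10953785 to 10954381 was called in 2 knockout lists (4.82 and 3.61) and 1 wild-type list (3.56).

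**Figure D1:**
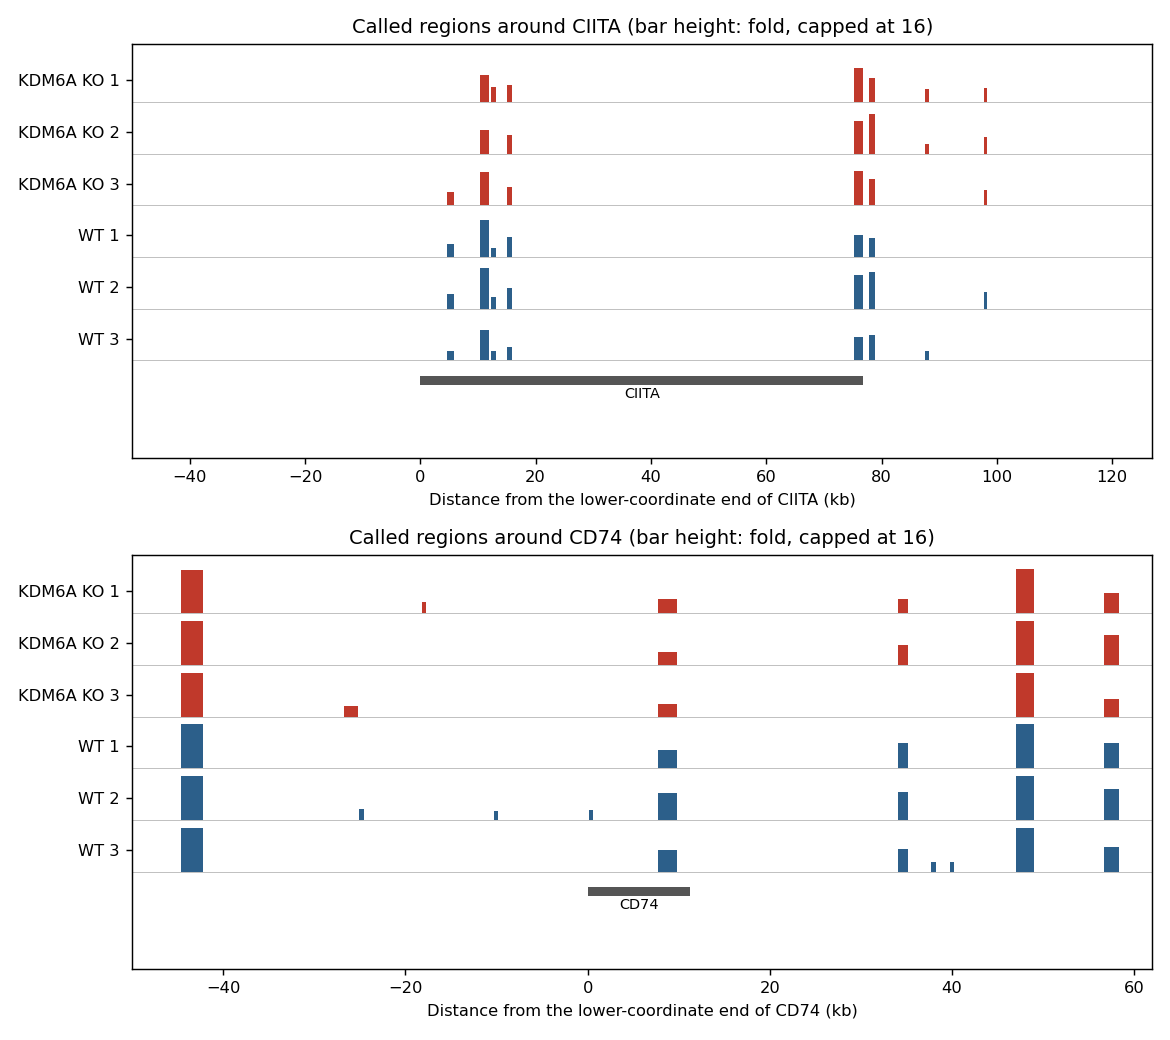
Regions called in each library around CIITA (top) and CD74 (bottom), against the distance in kb from the lower-coordinate end of the gene. Each bar spans the merged region, with short regions drawn wider than they are. Bar height is the authors' fold with a full row at 16 or more, and grey bars are the genes. CIITA regions that begin 10342 bp and 15006 bp into the gene were called in all 6 libraries.

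CD74 held a region that ranked lower in every knockout library than in any wild-type library, and no list had a peak within 1 kb of its annotated start. CD74 (gene ID 972) lies on chromosome 5 from 150401639 to 150412910 and is read from the upper end. The nearest region, at 150409331 to 150411479, ends 1431 bp short of its start at 150412910. Its fold was 5.12, 4.59 and 4.49 in the knockout and 6.62, 9.72 and 7.96 in wild-type libraries. The summit lay at 150410716 in wild-type replicate 1 and at 150409926 to 150409977 in the other libraries. Values of this region are therefore not all read at the same position. The within-list percentile averaged 24.7 ± 4.2 in knockout libraries and 61.9 ± 5.94 in wild-type libraries (SD, n = 3 each).

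Over the shared regions the CD74 region ranked at 9.97, 3.67 and 5.90 in the knockout, near the lowest of these regions. In wild-type libraries it ranked at 15.8, 30 and 23.8. The difference of −16.7 points had an exact permutation p of 0.1, and 11.4% of all shared regions had a difference as low or lower. That share is for a single region, while this one had the lowest difference of the 10 listed-gene regions. With lists of equal length the difference was −10.98 points. The knockout folds stood 6, 4 and 5 steps above the weakest peak of their lists. The wild-type folds stood 18, 28 and 25 steps above theirs, in smaller steps and from a lower floor. These step counts are therefore not compared between genotypes. A peak at the lower-coordinate end of CD74, at 150401783 to 150402091, was called in 0 knockout lists and 1 wild-type list, with a fold of 3.65.

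Away from the gene, the region at 150435720 to 150436769 was called in 2 knockout lists, with folds of 5.12 and 7.21, and in 3 wild-type lists, with folds of 9.18, 10.2 and 8.17. Knockout replicate 3 had no peak there, so the region has no rank among the shared regions. The other regions called in every list belong to the neighbourhood. They lay at the lower end of TCOF1, which encodes a nucleolar protein of ribosomal RNA synthesis (150356957 to 150359393), at the start of RPS14, a ribosomal protein gene (150448698 to 150450662), and above RPS14 (150458314 to 150459991). The RPS14 start had a fold of 19.0, 19.3 and 19.9 in the knockout and 26.3, 30.4 and 25.2 in wild-type libraries. Its rank was 89.7, 86.2 and 91.5 in the knockout and 93.0, 91.8 and 91.6 in wild-type libraries. The knockout values all lay below, by −2.98 points on average (exact permutation p = 0.1). Of the 12 regions in the CD74 window, 7 were called in 1 list only, 2 of them in a knockout list. With lists of equal length, only that at 150383429 to 150383786 among these 7 was called, in 1 knockout and 0 wild-type lists. The genome-wide share of regions called in 1 list is not given here.

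The genes for the DR and DQ chains, which form the classical peptide-presenting molecules, had no peak inside any gene body in any list. They lie on chromosome 6, HLA-DRA (gene ID 3122) at 32439887 to 32445046, HLA-DRB1 (3123) at 32578775 to 32589848, HLA-DQA1 (3117) at 32637406 to 32655272 and HLA-DQB1 (3119) at 32659467 to 32666657. HLA-DRA had a peak 21 bp below its lower-coordinate end, where it is known to start, at 32439541 to 32439866, in 0 knockout lists and 1 wild-type list (fold 3.77, 5 steps above the weakest peak). HLA-DRB1 lies whole in a stretch of 135.8 kb with no region in any list, from 32473727 to 32609558. HLA-DQA1 and HLA-DQB1 both lie in a stretch of 173.4 kb, from 32623295 to 32796744. HLA-DRA lies whole in a stretch of 33.4 kb. The median distance between neighbouring regions of the genome was 14.2 kb. For the stretches of 135.8, 173.4 and 33.4 kb, 5.54%, 3.55% and 30.8% of such distances were as long or longer. These shares count distances by number. A gene falls more easily in a long stretch, so they do not measure how unusual its position is. The DR and DQ genes have close relatives in the same locus. How reads that match several copies were handled is not given in the sources used here. The lack of a peak is therefore not read as closed chromatin.

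The single region absent from every knockout list and present in every wild-type list lay between HLA-DRB1 and HLA-DQA1. At 32622541 to 32623294 it is 14112 bp from the start of HLA-DQA1 and had wild-type folds of 4.91, 3.89 and 5.03 (4.61 ± 0.63, SD, n = 3). These values stood 10, 4 and 11 steps above the weakest peak of their lists, and with lists of equal length the region was called in 0 lists. A neighbour at 32609559 to 32610371 was called in 2 knockout lists (6.92 and 4.21) and 3 wild-type lists (5.55, 6.08 and 7.96), also with lists of equal length. Below HLA-DRA, the region at 32397039 to 32397777, inside BTNL2, had folds of 4.51 and 4.77 in 2 knockout lists and 5.77, 6.08 and 6.50 in the 3 wild-type lists. That at 32413389 to 32413889 was called in 1 knockout list (3.93) and 3 wild-type lists (4.06, 5.10 and 3.35). With lists of equal length it was called in 0 knockout and 0 wild-type lists.

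HLA-DPA1 (gene ID 3113, 33064569 to 33080748) and HLA-DPB1 (3115, 33075990 to 33089696) encode the chains of HLA-DP and are read in opposite directions. Their window held 3 regions, none in a knockout list and each in 1 wild-type list. Only that at 33075638 to 33076128, called in wild-type replicate 1 with a fold of 4.27, overlapped the genes, and it covers the start of HLA-DPB1. Its summit lay at position 105 from that start, outside the sequence printed above. With lists of equal length none of the 3 was called.

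The HLA-DM genes, whose product edits the peptides of the other class II molecules, were the only listed genes with a peak at the annotated start in more than 1 list. HLA-DMA (gene ID 3108) lies at 32948618 to 32953097 and HLA-DMB (3109) at 32934636 to 32941028, and both start at the upper end. The region over the HLA-DMA start, at 32952996 to 32953461, was called in 1 knockout list with a fold of 7.21 and in 3 wild-type lists with folds of 7.47, 6.32 and 5.45. The knockout peak was in replicate 2, and the other two knockout libraries had none. Summits lay at −132 in the knockout library and at −95, −265 and −174 in the wild-type libraries, upstream of the start. With lists of equal length the calls were 1 knockout and 2 wild-type lists.

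The region over the HLA-DMB start, at 32940718 to 32941464, was called in 0 knockout lists and in 2 wild-type lists, with folds of 4.62 and 5.24. The summits, at −71 and −112, lay on either side of the X core printed above. These peaks stood 7 and 12 steps above the weakest of their lists, and at equal list length neither was called. Between the genes, the region at 32944080 to 32944814 was called in 1 knockout list (3.91) and 3 wild-type lists (4.48, 5.35 and 3.77). With lists of equal length it was called in 1 knockout and 0 wild-type lists. The strongest region in the window, at 32967191 to 32974086, covers the start of BRD2, which encodes a reader of acetylated histones. Its rank was 97.9, 97.1 and 95.9 in the knockout and 83.9, 90.6 and 90.5 in wild-type libraries. The ranks did not overlap, and the difference was 8.64 points (exact permutation p = 0.1). A region at 32893898 to 32895504, below HLA-DMB, was called in all lists with overlapping ranks.

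**Figure D2:**
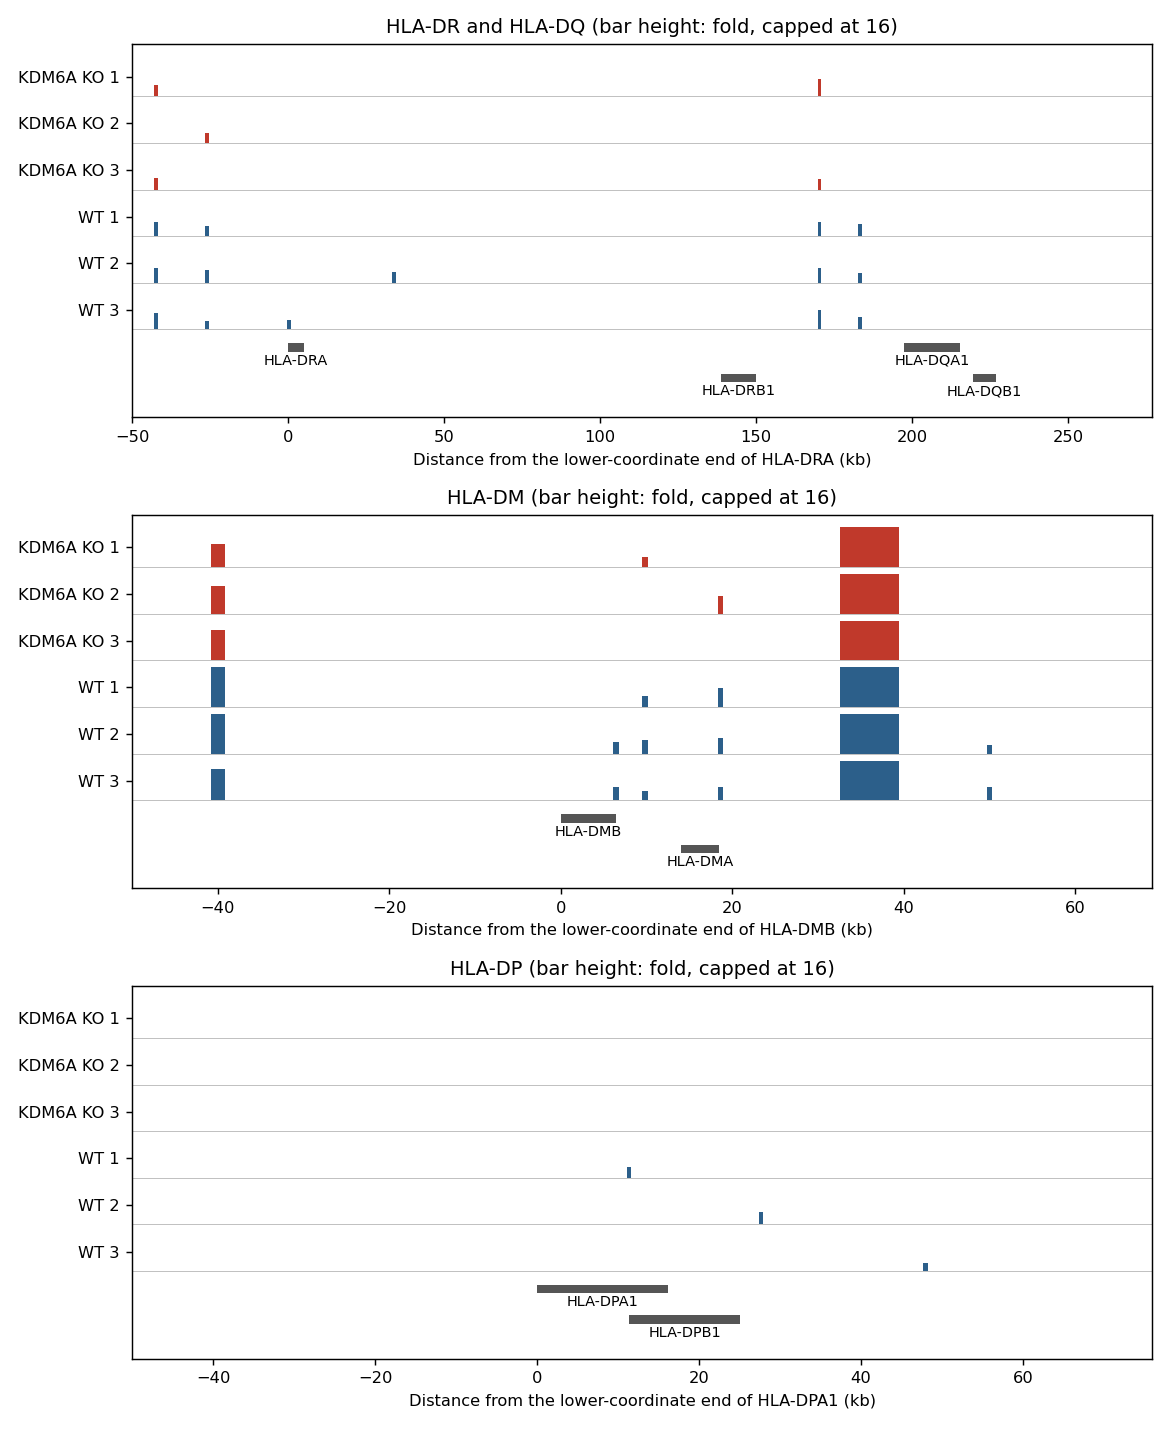
Regions called in each library around HLA-DR and HLA-DQ (top), HLA-DM (middle) and HLA-DP (bottom), against the distance in kb from the lower-coordinate end of HLA-DRA, HLA-DMB or HLA-DPA1. Bars span the merged region and their height is the authors' fold, with a full row at 16 or more. Short regions are drawn wider than they are, so the bar below HLA-DRA runs into the drawn gene. No bar falls on HLA-DRB1, HLA-DQA1 or HLA-DQB1, and no knockout row has a bar in the HLA-DP panel.

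**Figure D3:**
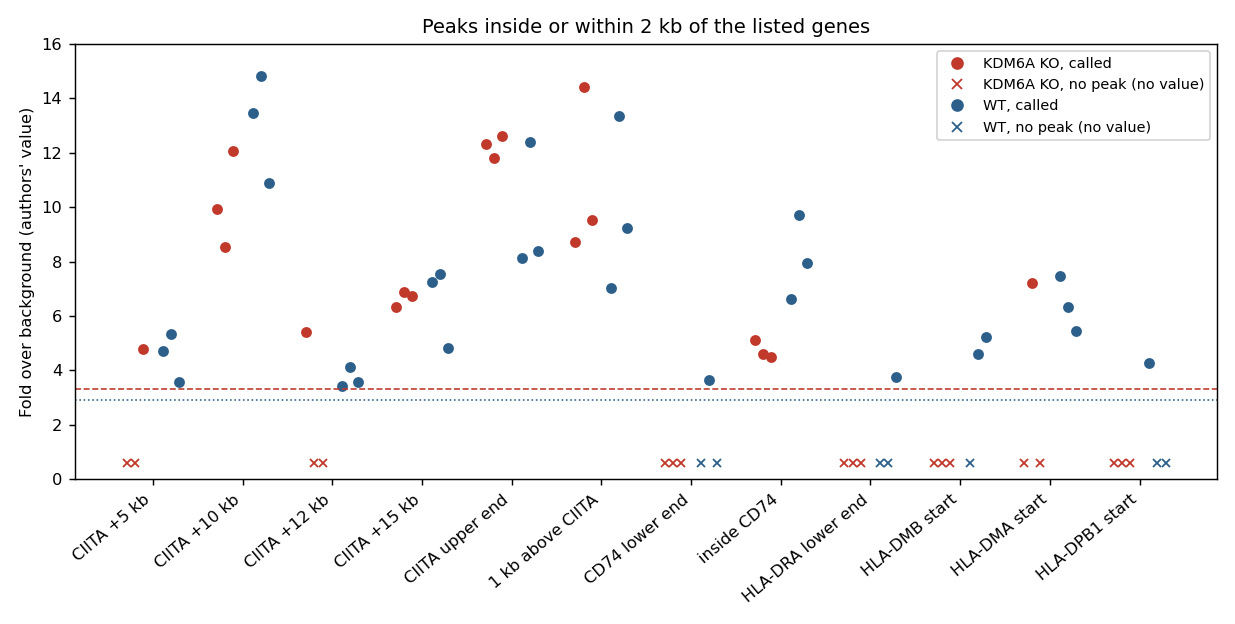
Authors' fold over background at the 12 regions inside or within 2 kb of a listed gene, with 1 dot per library, knockout left of wild type. Crosses mark libraries with no peak and have no value. The dashed and dotted lines are the highest weakest-peak fold among the knockout (3.31) and the wild-type (2.92) lists. The dots at the HLA starts lie at 7.47 or below, while the CIITA region 10342 bp into the gene reaches 14.8.

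No listed gene had a peak at its annotated start in every list. Of the 8 listed genes with an annotated start, 0 had a peak within 1 kb in all 6 lists, compared with 58.8% of 15843 protein-coding genes. For 5 of the 8 (CD74, HLA-DRB1, HLA-DPA1, HLA-DQA1 and HLA-DQB1) no list had a peak there, compared with 33.9%. For HLA-DRB1, HLA-DQA1 and HLA-DQB1 the limit on reads that match several copies holds here too. These shares are therefore not read as closed chromatin. Of these starts, HLA-DMA alone had a peak in each of the wild-type lists, and it also had one in 1 knockout list. Over all gene starts called in every wild-type list, 1.2% were called in no knockout list.

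Fewer of the 35 regions were called in each knockout library, and the knockout lists were shorter by a like factor. The knockout libraries called 18, 15 and 15 regions and the wild-type libraries 20, 27 and 26, with means of 16 ± 1.73 in knockout and 24.3 ± 3.79 in wild-type libraries (SD, n = 3 each). The ranges did not overlap (two-sided exact permutation test, p = 0.1). The knockout mean was 65.8% of the wild-type mean, and for whole lists it was 64.5%. As a share of each list the regions made up 0.0454% ± 0.00786 of knockout peaks and 0.0442% ± 0.00668 of wild-type peaks (exact permutation p = 0.9). With each list cut to its strongest 33055 peaks, the knockout libraries called 18, 13 and 14 regions and the wild-type libraries 14, 15 and 12, which turned the direction of the difference (exact permutation p = 0.7). At that length 15 of the 35 regions were called in no list, 9 in all 6, 5 in knockout lists only and 0 in wild-type lists only. Each of the 5 was called in 1 knockout list. Of the 48172 regions genome-wide called in any list at that length, 19.9% were in knockout lists only and 15.3% in wild-type lists only, against 5 and 0 of the 20 here.

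**Figure D4:**
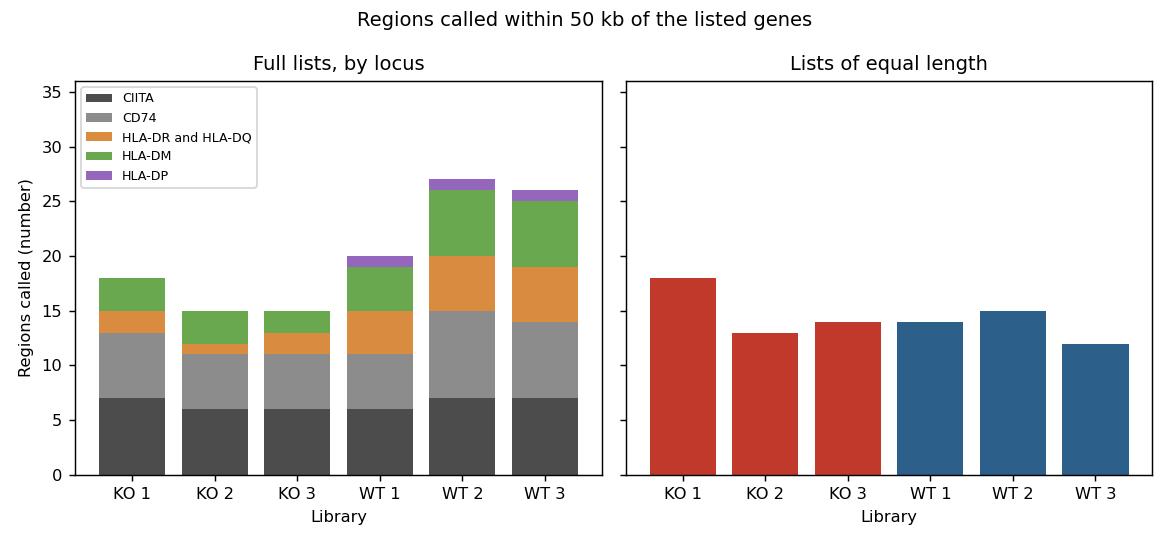
Number of regions within 50 kb of the listed genes called in each library, by locus in the full lists (left) and in lists of equal length (right). The knockout bars stand at 15 to 18 and the wild-type bars at 20 to 27 in the full lists. At equal length the knockout bars stand at 13 to 18 and the wild-type bars at 12 to 15.

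By presence, 10 of the 35 regions were called in all lists, compared with 23589 of 75701 genome-wide. Of these 10, 5 lay within 1 kb of an end of a coding gene that is not on the list. A further 12 were called in 1 list only, with folds of 3.35 to 4.86, of which 2 were in a knockout list. The genome-wide share of regions called in 1 list is not given here. Since the wild-type lists were longer, this split is not read as a trait of the listed genes. Of the 19 regions called in every wild-type list, 1 was called in no knockout list, compared with 17.3% of 39777 such regions genome-wide. Among those with a mean wild-type percentile under 50 it was 1 of 6, compared with 40.6% of 12971. With fewer libraries the rule is easier to meet: the count was 3 of 19 without knockout replicate 1 (19.9% genome-wide), 3 of 19 without knockout replicate 2 (22.4%) and 2 of 19 without knockout replicate 3 (20.8%). Leaving out wild-type replicate 1 gave 3 of 21 (21.3%). Of the 11 regions called in every knockout list, 0 were called in no wild-type list, compared with 0.39% genome-wide, and the count was 1 of 11 without wild-type replicate 2, compared with 0.733%. The 9 regions called in every wild-type list and missing from at least 1 knockout list had mean wild-type folds of 3.70 to 9.19. In 8 of them at least 1 wild-type fold was under 2 times the highest weakest-peak fold of a knockout list. This rule is loose: a fold of 6.50 in wild-type replicate 3 met it and stood at percentile 52.6 of its list. The share over all regions is not given here. No test was made of these shares, since regions are not replicates.

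Among the 10 regions called in every list, differences in rank ran in both directions. Knockout ranks lay wholly below wild-type ranks at 2 regions (inside CD74 and at RPS14), compared with 17.3% of all 23589 shared regions. They lay wholly above at 3 regions (10881212 and 10941446 in CIITA, and BRD2), compared with 17.8%. Without knockout replicate 1 the number was 5 of 10, compared with 22.6% of the regions shared in that setting. The remaining 5 overlapped. Both counts are near the background at this number of regions. The median difference was 3.35 points over the 10 regions and −0.06 points over all shared regions, where the 5th and 95th percentiles were −23.7 and 23.9. Without regions at starts of unlisted genes, 1 of 6 lay below and 1 of 6 above.

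**Figure D5:**
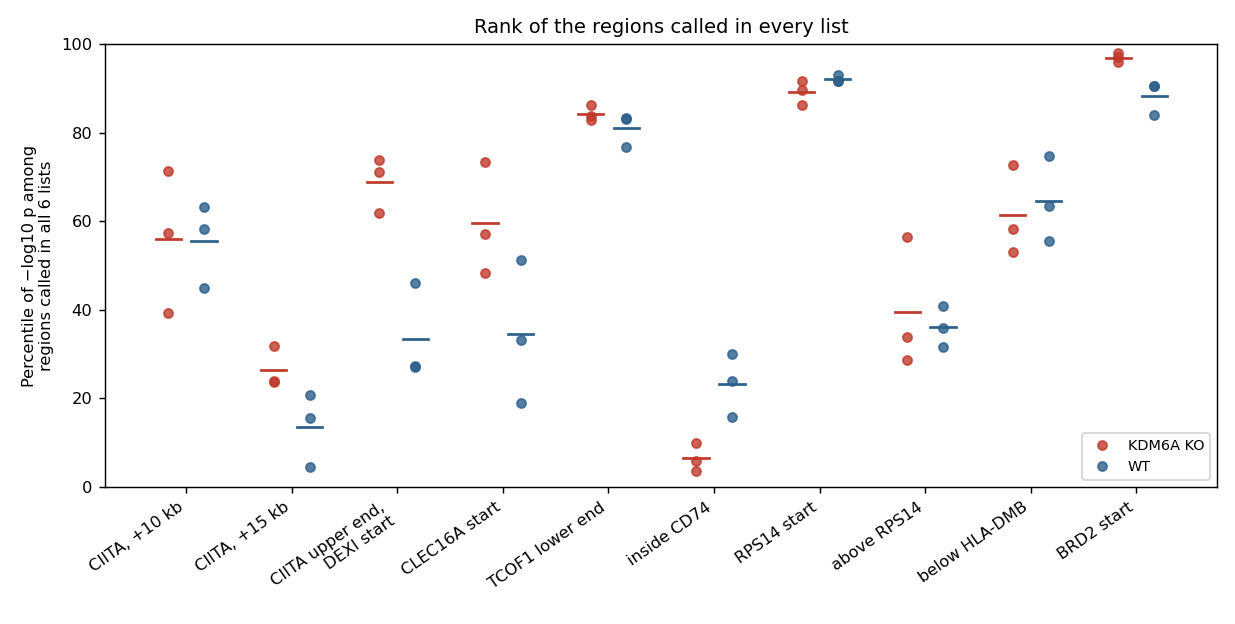
Percentile of the −log10 p-value among the 23589 regions called in all 6 lists, for the 10 such regions within 50 kb of the listed genes. Dots are libraries, lines are means of 3, and knockout stands left of wild type. The region at the upper end of CIITA and the start of DEXI stands 35.4 points higher in the knockout, and the region inside CD74 16.7 points lower (a difference of −16.7).

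Other genes of the pathway were read from peaks within 1 kb of either end. The proteins that recruit CIITA to DNA had one in every list for 7 of 7 genes: RFX5, RFXAP, RFXANK, CREB1, NFYA, NFYB and NFYC. The remaining class II chains HLA-DRB5, HLA-DQA2, HLA-DQB2, HLA-DOA and HLA-DOB had one in 0 lists. As for the DR and DQ genes above, this lack is not read as closed chromatin. Of the 4 antigen processing genes, IFI30, a lysosomal thiol reductase, and LGMN, a lysosomal protease, had one in all lists, and the proteases CTSS and CTSL had none. Of 7 known regulators of CIITA, IRF1, IRF4 and TCF3 had one in every list, PAX5 in 2 knockout and 3 wild-type lists, and IRF8 and SPI1 in none. PRDM1, the repressor named above, had one in 1 knockout and 3 wild-type lists. Read at annotated starts instead, PRDM1 was called in 3 knockout and 3 wild-type lists and IRF8 in 0 knockout and 2 wild-type lists, so these calls depend on which position of the gene is read. In these 4 groups 0 of 23 genes were called in all lists of one genotype and none of the other. Of 20037 protein-coding genes read at either end in the same way, 55.6% were called in all lists, 35.3% in none and 1.02% in all lists of one genotype and none of the other.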

How the data were processed

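ATAC-seq libraries of ARP1 cells, 3 with a KDM6A knockout and 3 wild type, were grouped by their titles. The submitters' processing notes name GRCh38, MACS2 2.1.2, Bowtie2, Trimmomatic, MultiQC and FastQC, without role, order or settings. Whether reads were shifted for the Tn5 offset or duplicates removed is not given in the sources used here. Peaks were called library by library, with 1 list for each. The deposited score of the authors is 10 times the −log10 q-value, made whole. The deposited fold ratio, −log10 p-value and −log10 q-value are the authors' values for each peak. The labels state a target of about 60000000 reads a sample, and the lists hold no read depth. In every list fold and −log10 p put the peaks in the same order. Peaks on the mitochondrial genome were left out.

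Peaks sharing 1 bp were merged with Python 3.11.15, pandas 2.3.3 and NumPy 2.4.6, and a region was called in a library that has a peak there. Where a library has several peaks in a region the one with the highest −log10 p was used. Genes came from the RefSeq table of GRCh38.p14, and starts from its promoter table. All listed genes are named, with values for regions inside or within 2 kb of them, for regions called in all lists of 1 genotype and none of the other, and for shared regions whose ranks do not overlap. Further regions, and the reading of genes at annotated starts as well as ends, were chosen after their values were seen, as were the backgrounds at gene ends and at equal list length. Tests were exact permutation tests, two-sided, with 20 possible labellings. Of the marker and pathway genes chosen, 2 are not reported here. The code was tested on simulated data. The genes, the lists and the tests were chosen with earlier results of these data known.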

Additional observations from a re-analysis of the deposited data

How the results depend on the processing

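The difference in regions called per library (knockout minus wild type, −8.33) kept its direction under a −log10 q-value of at least 5, windows of 10 kb and 100 kb, merging at 100 bp, and without regions at starts of unlisted genes. It ran from −10.5 to −7 when single libraries were left out, and turned to 1.33 with lists of equal length. The difference in the share of peaks (0.00119 percentage points) was −0.00204 with windows of 10 kb, 0.00618 with windows of 100 kb, 0.00541 at a −log10 q-value of at least 5 and 0.00403 with lists of equal length, and ran from −0.00333 to 0.00386 without single libraries. The cause was not tested. The count of regions in every wild-type and no knockout list was 0 at a −log10 q-value of at least 5, with lists of equal length, with windows of 10 kb or with a fold of at least 4. It was 3 with windows of 100 kb or when 2 of 3 lists sufficed, and 1 to 3 without single libraries. The converse count was 0 throughout, except for 1 without wild-type replicate 2, and so ran from 0 to 1. Regions ranked wholly below in the knockout numbered 2, and those wholly above 3 to 5 over the left-out libraries, with 5 without knockout replicate 1. Without regions at starts of unlisted genes both were 1. That setting and the one on percentiles under 50 were chosen after seeing the data. Ranking by fold gave identical values by construction, since fold and −log10 p order the peaks identically, and is no separate check. Merging does not enter the share of peaks, and at equal list length the CIITA region at 10881212 was not in all lists, so neither has a value. Replicate numbers did not pair the libraries: same-numbered libraries had correlations of −0.0209, 0.015 and −0.184 in their deviations. With a replicate block, by sign flips over the 3 number pairs, the difference in regions called of −8.33 had an exact p of 0.25, the smallest possible, and the share difference of 0.00119 an exact p of 1. The lists hold no read depth, so its effect on the weak regions was not tested.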
